A study of Mus musculus with 6 samples.

Results

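Hair shaft keratins are the intermediate filament proteins that fill the hardened shaft of a hair. Each filament pairs a type I keratin with a type II keratin, and the genes lie in separate clusters for the 2 types. In human follicles the pairs appear one after another as cells move up from the matrix: K35 is made early, in the matrix and cuticle, the cortex keratins K31, K33A, K34 and K86 follow higher up, and K82 belongs to the cuticle. Hair follicles cycle between rest (telogen) and growth (anagen), and shaft keratins are made in growing follicles.

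The 8 genes described here are the type I keratins Krt31, Krt33a, Krt34 and Krt35 and the type II keratins Krt82, Krt84, Krt86 and Krt87. They are a named list, matched to the array through the RefSeq accession of each probe, and each was represented by 1 probe and 1 spot, 8 of the 22746 genes tested. The tissue was back skin of C57/BL mice given cyclosporin A, an inhibitor of the phosphatase calcineurin, or ethanol, taken on days 2, 4 and 7. Each day had 2 two-colour Agilent arrays, and each array held 1 cyclosporin A sample (Cy5) and 1 ethanol sample (Cy3) of the same day, labelled as biological replicates. The age of the mice, the dose and whether animals were pooled are not given in the sources used here, so the p-values here speak of the spread among these samples alone. Dyes were not swapped, so a dye effect on a probe cannot be told apart from treatment in a single day's ratio, although a constant one cancels between days.

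All 6 arrays were usable, with array medians of 134.5 to 187 in the cyclosporin A channel and 203 to 277 in the ethanol channel, and no saturated spots. Probes well above background made up 59.9% to 68.8% in the cyclosporin A channel and 43.5% to 56.5% in the ethanol channel. Days 2 and 4 lay on slide 1 and day 7 on slide 2, so slide and day 7 cannot be told apart in any comparison between days. All 8 keratins passed the filter on dim probes, but Krt31, Krt82, Krt86 and Krt87 passed only through the cyclosporin A channel at day 7, where they are high.

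The promoter letters of 4 of the 8 genes were at hand and are shown because the genes moved very differently: Krt31, Krt34 and Krt82 rose at day 7 and Krt84 did not pass the test. The sequences are the 250 bases before each gene's start, from RefSeq on GRCm38.p6, minus strand, written 5′ to 3′. Capitals mark TATAAA on the gene's strand, the core TTTAT or TTAAT of the factor Hoxc13 on either strand, and the core of Lef1, searched on either strand as CTTTG followed by AA, AT, TA or TT; TTTAT on the other strand overlaps TATAAA.
Krt31 (chr11:100050552-100050801): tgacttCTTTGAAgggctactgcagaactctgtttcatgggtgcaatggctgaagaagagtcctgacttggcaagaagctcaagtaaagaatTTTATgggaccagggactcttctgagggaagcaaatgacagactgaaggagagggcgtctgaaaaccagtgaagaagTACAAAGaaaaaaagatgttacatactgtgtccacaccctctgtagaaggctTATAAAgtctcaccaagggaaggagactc
Krt34 (chr11:100041555-100041804): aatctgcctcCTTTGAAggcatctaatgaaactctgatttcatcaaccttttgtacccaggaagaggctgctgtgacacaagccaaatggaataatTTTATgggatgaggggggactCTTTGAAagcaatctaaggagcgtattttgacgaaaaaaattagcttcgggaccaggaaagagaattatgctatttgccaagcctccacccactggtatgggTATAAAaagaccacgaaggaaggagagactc
Krt82 (chr15:101550660-101550909): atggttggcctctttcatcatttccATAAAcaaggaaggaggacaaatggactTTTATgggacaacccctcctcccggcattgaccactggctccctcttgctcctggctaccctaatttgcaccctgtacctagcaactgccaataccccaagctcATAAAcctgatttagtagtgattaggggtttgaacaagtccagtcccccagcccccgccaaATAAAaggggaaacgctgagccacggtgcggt
Krt84 (chr15:101532821-101533070): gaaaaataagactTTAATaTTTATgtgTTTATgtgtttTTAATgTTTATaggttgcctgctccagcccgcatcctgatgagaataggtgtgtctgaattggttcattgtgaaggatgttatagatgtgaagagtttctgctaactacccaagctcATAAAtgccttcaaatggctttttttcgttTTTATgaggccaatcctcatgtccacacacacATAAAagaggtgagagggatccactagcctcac
The letters TATAAA stood in the windows of Krt31 and Krt34, 29 and 31 bases before the start, and in 7.59% of 32851 promoters. A Lef1 core was found in the same 2 windows and in 14.8% of promoters of that length. The Hoxc13 core was found in 4 of 4 windows, but also in 47.8% of all promoters. Krt31 and Krt34, which are close neighbours in the type I cluster, shared 157 of 233 aligned promoter bases (67.4%). A GACGC core of Foxn1 (either strand) was found in the window of Krt31 and in 22.6% of promoters, and the core TGGAAA of NFAT, the factors that calcineurin activates, in the window of Krt82 and in 18.6%; neither is in capitals. These are matches of letters, with no binding measured. Promoters of Krt33a, Krt35, Krt86 and Krt87 were not analysed here.

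At day 7, 7 of the 8 keratins were higher in cyclosporin A skin than in ethanol skin, and Krt84 did not pass the test (limma, adjusted p under 0.05 over all genes). Of all genes tested, 2.35% were called higher on that day. Of the 7, Krt31, Krt82, Krt86 and Krt87 passed the filter on dim probes only through cyclosporin A at day 7, where they are high. Without that filter Krt82 was not called (limma adjusted p = 0.0532), while the others kept their calls. The median log2 ratio was 3.31 for the 8 keratins against 0.03 for all genes. In whole skin, more cells making a keratin and more RNA per cell cannot be told apart.

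Among the type I genes, Krt33a, a cortex keratin, had log2 ratios of 6.38 and 5.66 on the 2 day 7 arrays. Its raw spot intensities were 12523 and 8167 in cyclosporin A skin, against 150 and 192 in ethanol skin. The groups were far apart, and the ethanol spot was not well above background on any array, so the ratio is a lower bound. Such bounds are written "at least": the bright group's mean is set against the higher of the dim probe's own value and the lowest signal that cleared background on that array. In each case given here the probe's own value was the higher, so the bound equals the fitted mean ratio. Such a bound allows for the dim channel alone, and single arrays or other settings can lie below it. The mean log2 ratio of Krt33a was 6.02 (SE 0.27, limma adjusted p = 0.000163), at least 65.0-fold, and it stood in place 3 of 22746 genes by ratio.

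Krt34, a keratin of the upper cortex in human hair, had log2 ratios of 4.94 and 4.00, and was at least 22.1-fold higher (SE 0.21, limma adjusted p = 0.000231). Its raw intensities were 5606.5 and 2472.5 in cyclosporin A skin and 186 and 201 in ethanol skin. Krt31, a keratin of the middle cortex, had log2 ratios of 3.01 and 2.21, and was at least 6.11-fold higher (SE 0.19, limma adjusted p = 0.00166). For these genes too, the cyclosporin A and ethanol samples did not overlap. Krt35, the early keratin of matrix and cuticle, had nearly equal ratios of 4.00 and 3.99. Krt35 was well above background in both skins at day 7, so its fold of 15.9 is a measured one (SE 0.15, limma adjusted p = 9.53e-05).

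Among the type II genes, Krt86, a cortex keratin, had log2 ratios of 3.67 and 3.57 and was 12.3-fold higher (SE 0.17, limma adjusted p = 0.000241). Krt87 had log2 ratios of 2.98 and 3.02 and was 7.98-fold higher (SE 0.12, limma adjusted p = 0.000131). For Krt86 and Krt87, 1 of the 2 ethanol spots was well above background at day 7. Krt82, the cuticle keratin, had unequal ratios of 1.90 and 0.80, and was at least 2.55-fold higher (SE 0.24, limma adjusted p = 0.0392). This call was lost in 8 of 16 other settings, including without any single array other than day 7 replicate 2; without day 7 replicate 1 the log2 ratio was 0.80 (limma adjusted p = 0.138), and without the other arrays it was 1.35 with adjusted p between 0.0512 and 0.0951.

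The sizes depended on the signal used. With the scanner's processed signals the day 7 log2 ratios were 7.83 for Krt33a, 6.72 for Krt34, 4.17 for Krt31, 5.27 for Krt86, 4.19 for Krt87 and 3.28 for Krt82, each above the value given here by more than 1.5-fold, and 4.19 for Krt35.

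Krt84, whose human counterpart is known from the tongue rather than the hair shaft, had log2 ratios of 0.14 and 0.15 at day 7 (mean 0.14, SE 0.12, limma adjusted p = 0.511). Its spot was well above background in both skins on all 6 arrays. Raw intensities of Krt84 at day 7 were 224 and 238 in cyclosporin A skin and 263 and 270 in ethanol skin. The day 7 array medians were 134.5 and 160 in the cyclosporin A channel and 203 and 231 in the ethanol channel. Whether low signal limits the Krt84 ratio was not tested.

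The keratins differed in how far their ratios on the day 7 arrays lay apart. Krt31, Krt33a, Krt34 and Krt82 had ratios higher by 0.79, 0.72, 0.94 and 1.10 on replicate 1 than on replicate 2, whereas those of Krt35, Krt84, Krt86 and Krt87 differed by 0.10 or less. The wide gaps were those of the type I genes Krt31, Krt33a and Krt34 and of type II Krt82. The narrow gaps were those of type I Krt35 and of the type II genes Krt84, Krt86 and Krt87. The gaps of all genes were not compared. The median log2 ratio was 4.23 for the 4 type I genes (range 2.61 to 6.02) and 2.17 for the 4 type II genes (range 0.14 to 3.62), and the ranges overlapped. Over the 6 arrays, the ratios of the 7 genes other than Krt84 correlated with Pearson's r of 0.88 to 0.997, and those of Krt84 with the others at 0.08 to 0.29; the points share arrays and the step at day 7 carries the pattern.

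**Figure D1:**
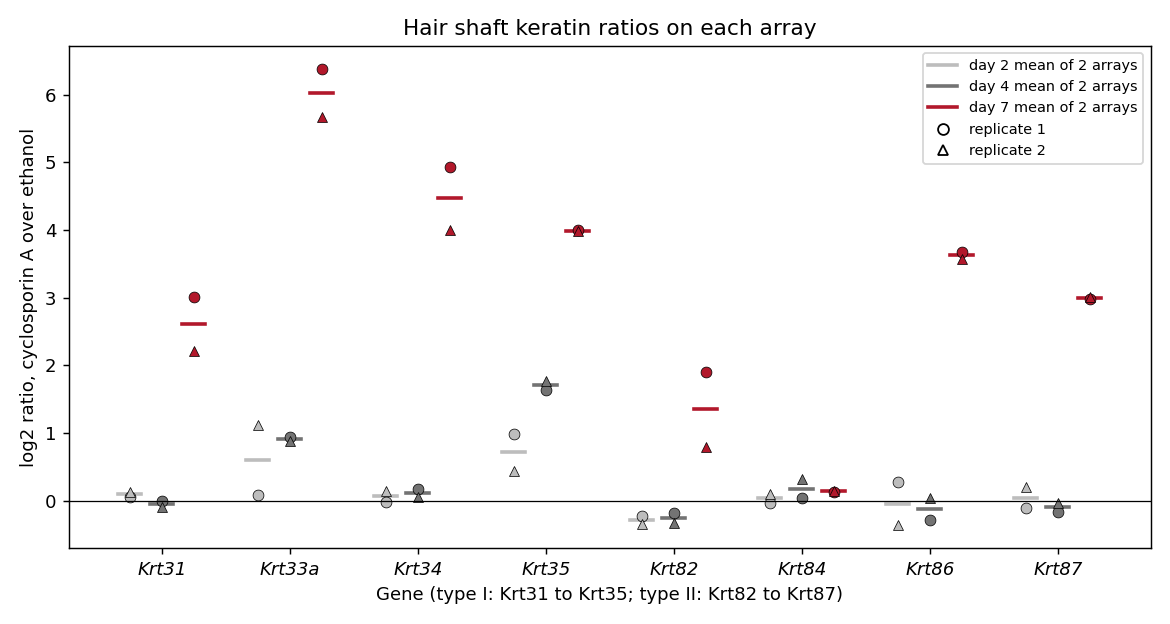
Log2 ratio of cyclosporin A over ethanol for each hair shaft keratin, with 1 point per array (2 arrays a day) and a bar at each day's mean. All day 7 points except those of Krt84 stand above the points of days 2 and 4 of the same gene, and Krt35 is raised on both day 4 arrays, at 1.64 and 1.78.

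Before day 7, no keratin passed the test. At day 2, 0 of 8 were called by limma, where 0% of all genes were called, and 1 had an unadjusted p under 0.05. At day 4, 0 of 8 were called, where 0.0044% of all genes were, and 2 had an unadjusted p under 0.05. These were Krt35 and Krt33a, the genes with the largest day 4 ratios among the keratins.

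Krt35 had log2 ratios of 0.98 and 0.45 at day 2, then 1.64 and 1.78 at day 4. The day 2 mean of 0.72 was 1.64-fold (limma adjusted p = 0.470). The day 4 mean of 1.71 (SE 0.15) was 3.27-fold, the rank 7 ratio of 22746 genes, with an unadjusted p of 1.14e-05 and a limma adjusted p of 0.129. Without either day 2 array that adjusted p was 0.0474. The difference between day 4 and day 2 was 0.99 (limma adjusted p = 0.999; 0 of 8 keratins and 0% of all genes called, 1 keratin at an unadjusted p under 0.05).

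Krt33a had log2 ratios of 0.08 and 1.12 at day 2, which were far apart (mean 0.60, limma adjusted p = 0.532). At day 4 its ratios were 0.95 and 0.89 (mean 0.92, limma adjusted p = 0.220). The other 6 keratins stayed between -0.36 and 0.32 on every array of days 2 and 4, and of them Krt82 was below 0 on all 4 arrays. Of these 6, only Krt84 had ethanol spots well above background on those days, and Krt82 had no such spot in either channel. Neither a lack of change nor the sign of Krt82 can therefore be read from these ratios.

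The ratios themselves differed between days. From day 2 to day 7, 6 of 8 keratins had a larger ratio by limma, where 0.264% of all genes did. The differences were 5.42 for Krt33a, 4.40 for Krt34, 3.67 for Krt86, 3.28 for Krt35, 2.95 for Krt87 and 2.51 for Krt31, with limma adjusted p between 0.00157 and 0.0196. Except in part for Krt35, these are differences of fitted ratios that rest on spots near background. At day 2 no ethanol spot of the other 5 was well above it, and neither was any cyclosporin A spot of Krt86. For Krt35, 1 of the 2 day 2 ethanol spots was well above it. Only the direction and the call are read from these differences. Krt82 differed by 1.63 (limma adjusted p = 0.291). Krt31 lost this call without any single array of day 2 or day 4 (2.47 to 2.56, limma adjusted p between 0.0984 and 0.112), with the days compared alone (2.51, adjusted p = 0.102) and without background correction (2.43, adjusted p = 0.147), and Krt82 gained it without day 7 replicate 2 (2.18, adjusted p = 0.0207).

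From day 4 to day 7, the same count of 6 of 8 keratins had a larger ratio, where 0.202% of all genes did. The differences were 5.10 for Krt33a, 4.35 for Krt34, 3.74 for Krt86, 3.10 for Krt87, 2.65 for Krt31 and 2.28 for Krt35, with limma adjusted p between 0.00153 and 0.0180. At day 4 too, no ethanol spot of these genes other than Krt35 was well above background, and Krt31 and Krt87 had no such spot in either channel. Krt82 differed by 1.60 (limma adjusted p = 0.446), and by 2.16 without day 7 replicate 2 (adjusted p = 0.0219). This count rested on the day 4 arrays, since it was 1 without day 4 replicate 1 and 2 without day 4 replicate 2. The log2 differences stayed close where the calls were lost, at 5.13 and 5.07 for Krt33a, 4.41 and 4.29 for Krt34 and 2.70 and 2.61 for Krt31, with limma adjusted p between 0.0724 and 0.287. Without background correction Krt31 (2.43, adjusted p = 0.188) and Krt34 (4.11, adjusted p = 0.0524) lost the call. Krt35 also lost the call without day 7 replicate 1 (2.28, limma adjusted p = 0.0946) or replicate 2 (2.29, adjusted p = 0.0588).

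The channels were next followed one by one, as normalized log2 levels. In cyclosporin A skin, 7 of 8 keratins were higher at day 7 than at day 2 by limma, where 0.928% of all genes were. Krt35 differed most, at 64.0-fold, with log2 levels of 14.34 and 14.14 at day 7 against 8.60 and 7.88 at day 2 (limma adjusted p = 2.35e-05). Krt33a differed by 5.82 and Krt34 by 5.02. Krt86 was at least 20.4-fold higher, since neither day 2 spot was well above background, and Krt82 at least 2.67-fold higher (limma adjusted p = 0.0287). With the replicate number as a block, or without either day 2 array, Krt31 and Krt82 lost this call (adjusted p of 0.0522 to 0.0837 for Krt31 and 0.0763 to 0.179 for Krt82).

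Against day 4, 6 of 8 keratins were higher at day 7 in cyclosporin A skin, where 0.378% of all genes were, and Krt82 missed the threshold at 1.41 (limma adjusted p = 0.0504). Krt82 was called in 4 alternatives: median centring (adjusted p = 0.0264), offset 16 (0.0100), the scanner's processed signals (4.10, 0.00922) and without day 7 replicate 2 (0.0106). Krt31 (3.42, limma adjusted p = 0.0187) lost its call with the replicate number as a block (adjusted p = 0.0566) and without background correction (3.11, adjusted p = 0.0710). Between day 4 and day 2 no keratin was called (0% of all genes, 1 of 8 at an unadjusted p under 0.05). That gene was Krt35, at 9.45 and 9.63 on day 4 against 8.60 and 7.88 on day 2, and these samples did not overlap.

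Krt35 was the keratin that was also called higher at day 7 in ethanol skin. Its level there was 10.35 and 10.15 at day 7, against 7.62 and 7.43 at day 2 and 7.81 and 7.85 at day 4. All day 7 samples stood above all earlier ones. At day 2, 1 of the 2 ethanol spots was well above background. Day 7 was 6.61-fold above day 2 (log2 2.73, SE 0.15, limma adjusted p = 0.00104) and 5.35-fold above day 4 (log2 2.42, limma adjusted p = 0.00197). Krt35 was 1 of 8 keratins called in each comparison, where 0.0308% and 0.022% of all genes were called higher. The scanner's raw intensities showed the same step, with 965.5 and 995 at day 7 against 247 to 349 on the earlier days.

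For the other 7 keratins no change in ethanol skin was called. With Krt35 counted, 5 of 8 keratins had an unadjusted limma p under 0.05 against day 2, and 6 of 8 against day 4. Of all 22746 genes, 2566 and 2167 did. Normalized levels at day 7 exceeded day 2 by 0.86 for Krt87 (limma adjusted p = 0.178), 0.82 for Krt31 (0.302), 0.69 for Krt86 (0.298), 0.62 for Krt34 (0.345) and 0.39 for Krt33a, while Krt82 and Krt84 differed by -0.21 and -0.08. Their raw ethanol intensities at day 7 did not stand above the earlier days in any of the 7. Krt31, for example, read 197.5 to 214 at day 7 and 197.5 to 219 before. Raw values of different arrays are not on a common scale, however. The ethanol array medians were lower at day 7 (203 and 231) than on the earlier days (239 to 277). Without day 7 replicate 2, Krt31 was called too, at 1.20 against day 2 (limma adjusted p = 0.0233) and 1.16 against day 4 (adjusted p = 0.0266). Between day 4 and day 2, 0 of 8 were called in ethanol skin (limma, 0.0044% of all genes called higher, 0 of 8 at an unadjusted p under 0.05).

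The samples of Krt35 did not overlap between its 6 groups, but not every pair of groups differed by the tests given here. The day 2 and day 4 ratios were not called (limma adjusted p of 0.470 and 0.129). Day 4 against day 2 was not called in ethanol skin (limma adjusted p = 0.587) or in cyclosporin A skin. In mean log2 level, cyclosporin A at day 7 (14.24) was followed by ethanol at day 7 (10.25), cyclosporin A at day 4 (9.54) and day 2 (8.24), and ethanol at day 4 (7.83) and day 2 (7.52), and no neighbours overlapped. For Krt31, Krt33a, Krt34, Krt82, Krt86 and Krt87, cyclosporin A at day 7 stood alone at the top. The order of their other groups is not read, since most of those spots were not well above background. For Krt84 all neighbours in the order overlapped. The separations of samples given here and above rest on 2 samples per treatment and day. They carry no test, and how many of all genes separate so was not counted. Krt31, Krt82, Krt86 and Krt87 also passed the filter only through cyclosporin A at day 7.

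**Figure D2:**
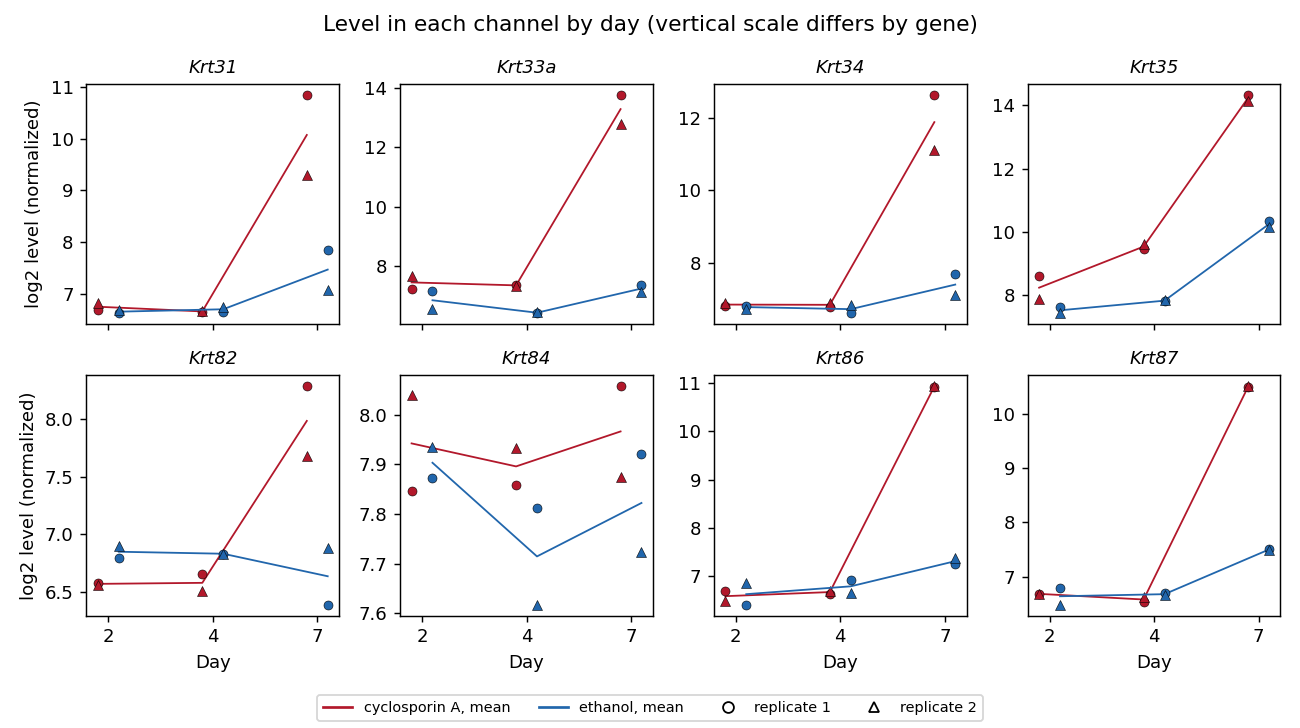
Normalized log2 level of each keratin in cyclosporin A skin and ethanol skin at days 2, 4 and 7, with 1 point per array and lines through the means of 2. Krt35 stands higher at day 7 in both skins (14.24 in cyclosporin A, 10.25 in ethanol), and Krt84 shows no step, its panel spanning a far narrower scale.

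Other keratins were set beside the shaft keratins. Of the inner root sheath keratins, which form the sheath that moulds the growing shaft, 4 of 4 tested were higher at day 7 (median log2 ratio 5.46): Krt71 at 6.18, Krt27 at 5.72, Krt25 at 5.20, and Krt26, whose ethanol spot was well above background on 0 arrays, at least 10.4-fold higher. Krt26 passed the filter only through the cyclosporin A channel at day 7, where it is high. Krt71 was also the 1 gene called at day 4 among all genes, at 2.04 (limma adjusted p = 0.0429). By contrast 0 of 6 companion layer and activation keratins, among them Krt75, Krt17, Krt16 and Krt6a, and 0 of 6 epidermal keratins, among them Krt5 and Krt14, were called by limma. Their medians were -0.04 and -0.22, and 0 of 6 and 1 of 6 had an unadjusted p under 0.05. With median centring 3 of the 6 companion layer and activation keratins were called, where 4947 of 22745 genes were. Krt75 and Krt15 lacked a value on 1 array each. Of 5 simple epithelial keratins, Krt8 was called (0.99, limma adjusted p = 0.0149), though not without either day 7 array. For the 8 remaining mouse hair keratin genes, Krt32, Krt33b, Krt36, Krt39, Krt40, Krt81, Krt83 and Krt85, no probe was matched by accession, symbol or synonym, so no ratio is given.

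Of 7 other shaft proteins tested, 6 were higher at day 7 (median log2 ratio 3.43). The largest were Prr9 at 4.75, Padi3, which converts arginine to citrulline in hair proteins, at 4.42, and S100a3, a calcium-binding protein of the cuticle, at 3.54. Vsig8, also among the 6, passed the filter only through the cyclosporin A channel at day 7, where it is high. Of 8 regulators of hair keratin genes, 5 were higher (median 1.03), led by Msx2 at 2.60, Lef1, the Wnt pathway's DNA-binding partner, at 1.57, and Msx1 at 1.19. Hoxc13, which binds hair keratin promoters, was at least 1.91-fold higher (limma adjusted p = 0.0268). Foxn1, the factor lost in nude mice, was at -0.24 (limma adjusted p = 0.616). The count of regulators was 1 of 8 without day 7 replicate 2, 3 without day 7 replicate 1 and 2 without either day 4 array, and 3 with the replicate block.

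**Figure D3:**
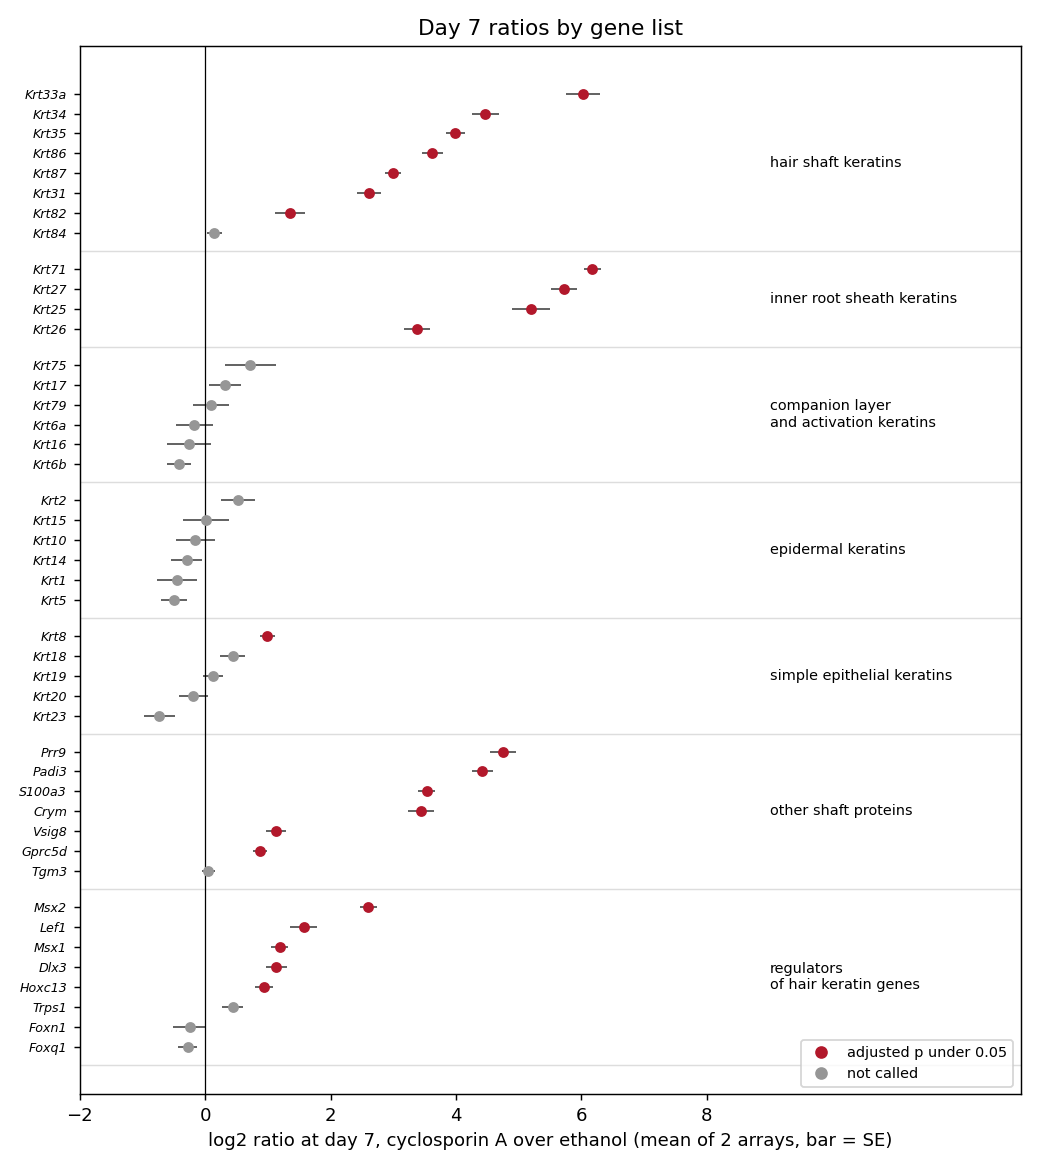
Log2 ratio at day 7 (cyclosporin A over ethanol, mean of 2 arrays, bar = SE) for each tested gene of 7 lists, in red where limma's adjusted p was under 0.05. Shaft keratins and inner root sheath keratins reach 6.02 and 6.18, while companion layer and epidermal keratins stay between -0.50 and 0.72.

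Marker genes of other cells also differed at day 7, some of them with raised ratios on earlier days. All 5 melanocyte genes tested were higher at day 7 (median 2.08), with summed levels of 32813 to 35475 in cyclosporin A skin and 5766 to 7507 in ethanol skin. Oca2, among these 5, passed the filter only through the cyclosporin A channel at day 7, where it is high. Tyr was not well above background on any array. All 5 genes of dividing cells were higher (median 1.56), with summed levels of 18830 to 24404 in cyclosporin A skin and 6762 to 6948 in ethanol skin. A second probe of Top2a, 1 of these 5, had a log2 ratio of 0.16, against 1.33 for the probe used. The ethanol spot of that second probe was not well above background on any array. The medians at day 2 were 0.74 for melanocyte genes and 0.35 for dividing cells, with 5 of 5 above 0 in each list and 0 called by limma. The medians at day 4 were 1.22 for melanocyte genes and 1.19 for dividing cells, with 0 genes of either list called by limma (5 of 5 in each at an unadjusted p under 0.05). Without day 7 replicate 2 the day 7 counts were 2 of 5 for melanocyte genes and 0 of 5 for dividing cells; without replicate 1 they were 3 and 2, and without either day 4 array the dividing cells' count was 3. For skeletal muscle, 2 of 5 genes were lower, where 0.642% of all genes were (Ttn at -1.41 and Des at -0.88; the other 7 probes of Ttn lay between -0.91 and -0.49), with summed levels of 190809 to 277384 in cyclosporin A skin and 285696 to 313316 in ethanol skin. The muscle count was 0 without either day 7 array and with the processed or deposited signals, and 1 without either day 4 array, with the mean of all probes and with the replicate block. None of 6 interfollicular epidermis, 5 fibroblast and 4 adipocyte genes was called by limma (3, 0 and 1 at an unadjusted p under 0.05). The log2 ratios were below 0 for 6 of 6 interfollicular epidermis genes (median -0.48, Lor at -1.22) and above 0 for 4 of 4 adipocyte genes (median 0.34). The part of these cells in the keratin ratios was not tested.

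Of 13348 genes with a symbol and a value on every array outside the 8, those whose 6 ratios lay closest to the mean profile of the 8 keratins were, by root mean square difference on the log2 scale, Ly6g6d (0.162), Sct (0.200), Krt26 (0.244), S100a3 (0.279) and Crym (0.348). They were followed by Krtap5-1, Krtap4-7, Krtap4-13, Krtap6-1 and Krtap4-16 (0.354 to 0.443), which encode keratin-associated proteins, the matrix in which shaft keratin filaments are set. The likeness is over 6 arrays and carries no test.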

How the data were processed

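RNA of mouse back skin was hybridised to 2-colour Agilent arrays, from 500 ng of total RNA per the labels' protocols. Per the file headers and the submitters' processing notes, the authors extracted spot intensities with Agilent Feature Extraction 9.1; the deposited value table holds log10 ratios of Cy5 over Cy3 equal to those in the scanner files. The genome build is not given in the sources used here. Median spot intensities were background-corrected (normexp, offset 50), normalized by loess within arrays and, for channel levels, Aquantile between arrays, in limma 3.58.1 (R 4.3.3). Control spots were left out, 27932 of 41174 probes passed the filter (well above background on every array of some day and channel), and the brightest probe stood for a gene. Of the probes, 22951 were named by RefSeq accession, 10 by symbol and 57 by synonym, and 18156 kept the file's name. One mean per day was fitted over 6 arrays, with Benjamini-Hochberg adjustment over all genes and a threshold of 0.05; the test was checked on simulated data. The number of arrays limits precision.

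Named were all 8 keratins, the keratins and up to 3 leading genes (by size of the day 7 ratio) of each list, any gene singled out, and the 10 genes of most similar profile. Hoxc13, Foxn1, Tyr, Ttn, Des, Top2a, Krt8, Vsig8 and Oca2 were singled out after their values were seen. The members and lists were chosen with earlier results of these data known. Alternatives covered normalization, background, signal, filter, probes, samples, block and arrays left out.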

Additional observations from a re-analysis of the deposited data

Results flagged for a closer look

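The cyclosporin A over ethanol ratio itself differed between days for 6 of the 8 keratins (limma contrast between days, higher on 2 of 2 day 7 arrays than on every earlier array). From day 2 to day 7 the log2 differences were 2.51 for Krt31, 5.42 for Krt33a, 4.40 for Krt34, 3.28 for Krt35, 3.67 for Krt86 and 2.95 for Krt87. From day 4 to day 7 they were 2.65 for Krt31, 5.10 for Krt33a, 4.35 for Krt34, 2.28 for Krt35, 3.74 for Krt86 and 3.10 for Krt87. Of all genes, 0.264% were called higher against day 2 and 0.202% against day 4. No ethanol spot of these keratins other than Krt35 was well above background at day 2 or day 4. Only the direction and the call are read from the differences. Most calls against day 4 were lost when a day 4 array was left out, as given above. Day 7 was hybridised on another slide than days 2 and 4, so slide and day cannot be told apart here.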

How the results depend on the processing

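Over up to 17 alternatives per value, called log2 differences of the 8 keratins kept direction and call in 453 of 499 recomputed values, lost the call in 46 and changed sign in 0. Of 905 recomputed values of differences not called, 819 kept direction and side, 18 became called and 68 changed sign, the farthest being Krt86 at 1.35. At day 7, between 6 and 7 keratins were called in all alternatives except the strictest filter, which asks every array to be well above background in each channel. That filter left Krt84 alone, so the count was 0 of 1 tested at day 7, and 0 for day 7 minus day 2, day 7 minus day 4 and the same differences within each channel. With median centring, 2 keratins were called at day 2 (Krt35 at 0.92 and Krt82 at -0.67) and 2 at day 4 (Krt35 at 2.01 and Krt87 at -0.51). Of all genes, 8887 of 22745 were called at day 2 with this setting and 5720 of 22746 at day 4, so these keratin counts do not stand out. That centring placed the median of all genes at 0.405, 0.281 and 0.172 on days 2, 4 and 7, against 0.036, 0.038 and 0.029 after loess, and the cause was not tested. Of all genes called at day 7, 78.5% were higher after loess and 89.3% with median centring, 534 of 680 and 4417 of 4947; the share was 91.3% with the deposited log ratios, 263 of 288. Other settings called between 147 and 767 genes at day 7. The day 4 count was 0 to 1 without single arrays, day 7 minus day 4 was 1 to 6, and the ethanol channel was 1 to 2 for day 7 against either earlier day. The deposited log ratios and the processed signals ended the calls of Krt35 (2.91 and 1.89) and Krt86 in day 7 minus day 2 and day 7 minus day 4, although Krt86 was larger there (6.21 to 6.22 and 4.87, against 3.67 and 3.74). The processed signals also ended that of Krt33a in day 7 minus day 4 (5.82, limma adjusted p = 0.0513), and with these signals Krt82 was called, at 4.48 and 3.74 in day 7 minus day 2 and 4.07 in day 7 minus day 4. The day 7 ratios ranged over the alternatives from 2.21 to 4.17 for Krt31, 5.51 to 7.83 for Krt33a, 4.00 to 6.72 for Krt34, 3.66 to 4.60 for Krt35, 0.80 to 3.28 for Krt82, 3.33 to 5.27 for Krt86 and 2.75 to 4.19 for Krt87. Scale normalization between arrays ended the call of Krt35 in day 7 minus day 4 (1.93, limma adjusted p = 0.0817).

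With the replicate number as a block, 7 keratins were called at day 7, as without it. The numbers did not pair the samples: deviations of same-numbered arrays correlated at -0.278 for days 2 and 7, 0.00765 for days 2 and 4 and -0.0231 for days 4 and 7 over 22584 genes. The block moved the count of all genes called at day 7 to 330, against 680 without it. Among the lists at day 7, the count called ranged from 1 to 5 for the regulators, 2 to 6 for the other shaft proteins, 0 to 4 for the inner root sheath keratins, 0 to 3 for companion keratins, 0 to 1 for simple epithelial keratins, 2 to 5 for melanocyte genes, 0 to 5 for dividing cells and 0 to 2 for muscle, and it reached 2, 3 and 2 for interfollicular epidermis, fibroblasts and adipocytes.

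With median centring, the sign turned in day 2 ratios for Krt31 at -0.30, Krt34 at -0.25 and Krt87 at -0.36, in day 4 ratios for Krt34 at -0.21, in day 4 minus day 2 ratios for Krt86 at 0. Other turns with this setting were in day 7 minus day 2 ratios for Krt84 at -0.05, in the cyclosporin A channel, day 7 minus day 2 for Krt84 at -0.05. With the scanner's processed signals, the sign turned in day 2 ratios for Krt84 at -0.01 and Krt87 at -0.33, in day 4 ratios for Krt31 at 0.07 and Krt86 at 0.40, in day 4 minus day 2 ratios for Krt86 at 1.35 and Krt87 at 0.02. Other turns with this setting were in the cyclosporin A channel, day 7 minus day 2 for Krt84 at -0.18, in the cyclosporin A channel, day 7 minus day 4 for Krt84 at -0.06, in the ethanol channel, day 4 minus day 2 for Krt31 at -0.01, Krt82 at 0.01, Krt86 at -0.62 and Krt87 at -0.12, in the ethanol channel, day 7 minus day 2 for Krt82 at 0.04, in the ethanol channel, day 7 minus day 4 for Krt82 at 0.03. With the deposited log ratios, the sign turned in day 2 ratios for Krt84 at -0.01 and Krt87 at -0.33, in day 4 ratios for Krt31 at 0.07 and Krt86 at 0.40, in day 4 minus day 2 ratios for Krt82 at -0.33, Krt86 at 1.34 and Krt87 at 0.02. Without background correction, the sign turned in day 2 ratios for Krt31 at -0.04, in day 4 minus day 2 ratios for Krt31 at 0, Krt34 at -0.02 and Krt86 at 0.01, in day 7 minus day 4 ratios for Krt84 at 0.01. Other turns with this setting were in the ethanol channel, day 4 minus day 2 for Krt31 at -0.04, Krt82 at 0.02 and Krt87 at -0.02. Leaving out 1 array at a time, the values whose sign turned ranged as follows. In day 2 ratios, Krt34 from -0.01 to 0.15, Krt84 from -0.03 to 0.10, Krt86 from -0.36 to 0.28 and Krt87 from -0.11 to 0.20. In day 4 ratios, Krt31 from -0.09 to 0 and Krt86 from -0.28 to 0.04. In day 4 minus day 2 ratios, Krt33a from -0.20 to 0.84, Krt34 from -0.03 to 0.13, Krt82 from -0.05 to 0.10, Krt86 from -0.40 to 0.24 and Krt87 from -0.30 to 0.01. In day 7 minus day 4 ratios, Krt84 from -0.17 to 0.10. In the cyclosporin A channel, day 4 minus day 2, Krt33a from -0.32 to 0.12, Krt34 from -0.06 to 0.05, Krt82 from -0.06 to 0.08, Krt84 from -0.14 to 0.05 and Krt86 from -0.01 to 0.18. In the cyclosporin A channel, day 7 minus day 2, Krt84 from -0.07 to 0.12. In the cyclosporin A channel, day 7 minus day 4, Krt84 from -0.02 to 0.16. In the ethanol channel, day 4 minus day 2, Krt31 from -0.01 to 0.10, Krt34 from -0.17 to 0.06, Krt82 from -0.07 to 0.03, Krt86 from -0.06 to 0.39 and Krt87 from -0.12 to 0.20. In the ethanol channel, day 7 minus day 2, Krt82 from -0.46 to 0.04 and Krt84 from -0.18 to 0.02. In the ethanol channel, day 7 minus day 4, Krt82 from -0.45 to 0.05. With 2 arrays a day, leaving 1 out assumes that the lone array varies like the others. Signal limits the ethanol values of Krt31, Krt33a, Krt34 and Krt82, which were not well above background on any array.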

Other observations

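After the promoter letters were seen, the run TTTATGGGA was found on the gene's strand 158 bases before the start of Krt31, 154 before that of Krt34 and 197 before that of Krt82, and not in the window of Krt84. It was found on the gene's strand in 17 of 32851 promoters (0.0517%), which belong to 16 genes, and in 0 of 5 promoters of other hair keratins. Of the 13 genes that are not among the 8 keratins, 3 were tested at day 7: Cntfr had a log2 ratio of 1.32 (limma adjusted p = 0.0160), Krtap26-1 of 1.97 (adjusted p = 0.00790) and Vmn1r58 of -0.07 (adjusted p = 0.799). The run was chosen after the sequences and the ratios were known, so these values are a description with no test of the run.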
